A study of Caenorhabditis elegans with 6 samples.

Results

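The flp and nlp genes of Caenorhabditis elegans encode precursors of neuropeptides, the flp genes those of FMRFamide-like peptides and the nlp genes those of other neuropeptide-like proteins. All protein-coding genes of the deposited gene table whose symbols begin with flp or nlp and a number were taken, except nlp-27 to nlp-34, an epidermal group. This gave 98 of 47656 genes, 31 flp and 67 nlp genes. Poly(A) RNA of whole wild-type worms was sequenced in 6 libraries, 3 from animals treated with ilimaquinone and 3 from vehicle-treated animals. Ilimaquinone is a sesquiterpenoid quinone from marine sponges. Treated animals lived from the L4 stage for 11 days in complete S-basal that held 100 µM ilimaquinone, and vehicle-treated animals in the same medium with vehicle in its place. Both groups were kept at 20 °C and also received ampicillin at 100 µg/mL and FUDR at 200 µM, a blocker of DNA synthesis that prevents progeny. Whether the 3 libraries of a group were separate cultures is not stated in the labels, and the p-values therefore cover the spread among these libraries alone, which may be technical.

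Neuropeptide precursors are made with a signal peptide, cut by proprotein convertases and carboxypeptidases in dense-core vesicles, often amidated, and released near or far from synapses to act on G protein-coupled receptors. One precursor of the flp class usually holds several related peptides that end in arginine and phenylalanine amide. In the worm these peptides set locomotion, sleep, egg laying, feeding and fat use, and most of the genes are active in small numbers of identified neurons, while a few are active in the gut or the epidermis.

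Libraries held 32155192 to 39244786 estimated counts. Whole-animal RNA held markers of neurons, muscle, gut, epidermis and germ line. Vehicle replicate 1 stood apart in germline and neuron markers. Its 18 oocyte and germline markers summed to 2112 TPM (a level corrected for transcript length and library depth), against 321 to 445 TPM in the ilimaquinone libraries and 496 and 555 TPM in vehicle replicates 2 and 3. Its 20 neuron markers summed to 1459 TPM, against 1883 to 2047 TPM with ilimaquinone and 1911 and 1822 TPM in vehicle replicates 2 and 3. Muscle markers, 10 genes, summed to 1993 to 2079 TPM with ilimaquinone and 1901 to 2000 TPM with vehicle. The 6 vitellogenin genes summed to 170 to 288 TPM with ilimaquinone, against 1947, 395 and 539 TPM with vehicle. Epidermis markers, 10 genes, summed to 477, 623 and 738 TPM with ilimaquinone, against 589, 418 and 207 TPM with vehicle. For these, vehicle replicate 3 was lowest.

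Most neuropeptide genes showed no difference between ilimaquinone and vehicle that passed the test, and most members had their lowest level in vehicle replicate 1. Of the 98 genes, 95 were abundant enough to test, 30 flp and 65 nlp genes. In the edgeR quasi-likelihood test over all 16506 tested genes (Benjamini-Hochberg, threshold 0.05), 1 of the 95 rose and 0 fell. Over all tested genes, 1.14% rose and 0.327% fell, 1.47% together. The gene that rose was nlp-79. At an unadjusted p under 0.05 there were 4 higher and 2 lower members, against 10.1% and 11.8% of all tested genes (21.9% together), and DESeq2's Wald test called 3 higher and 1 lower, against 5.33% and 5.71%. TPM values of the groups did not overlap for 13 higher and 3 lower members of the 95, against 17.3% and 12.4% of all tested genes.

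The flp genes summed to 4389, 4613 and 3956 TPM in ilimaquinone replicates 1, 2 and 3, against 2876, 4449 and 3722 TPM in vehicle replicates 1, 2 and 3. The nlp genes summed to 6399, 6571 and 6080 TPM with ilimaquinone, against 4755, 6693 and 5848 TPM with vehicle. The groups overlapped in both sums, and vehicle replicate 1 was lowest in both. The neuron marker sum was also lowest in vehicle replicate 1. Vehicle replicate 2, however, was highest for 40 of the 95 tested members and for 0 of the 20 neuron markers. The summed flp and nlp level was also divided by the summed neuron marker level. This ratio was 5.36, 5.46 and 5.33 with ilimaquinone, against 5.23, 5.83 and 5.25 with vehicle. Vehicle replicate 1 was lowest here too, though close to vehicle replicate 3. The markers include egl-3 and egl-21, which process neuropeptides and hold a large part of the marker sum. The ratio thus sets the peptide genes partly beside genes of their own pathway, and a ratio without these genes was not computed. In whole-animal RNA, lower levels within neurons and a larger share of RNA from other tissues cannot be told apart.

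**Figure D1:**
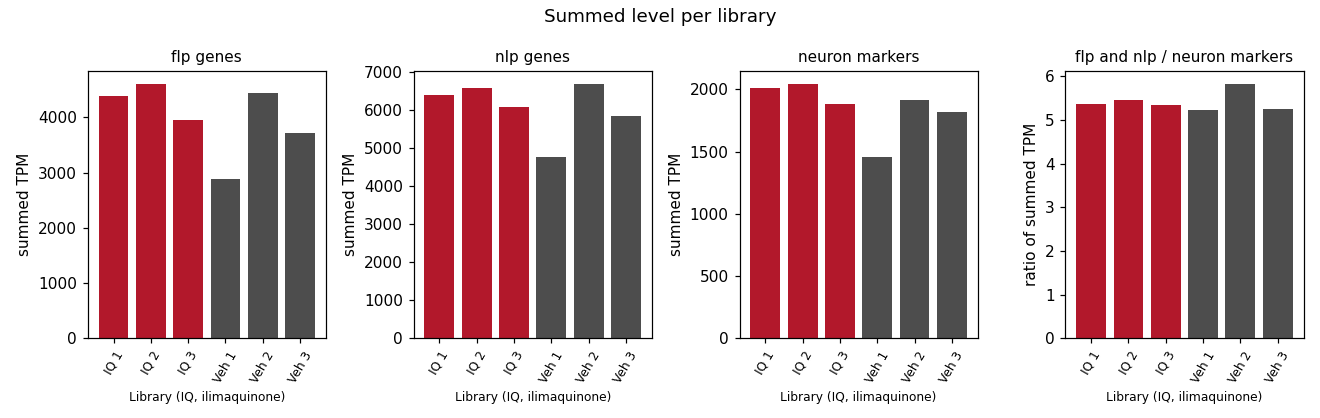
Summed TPM of flp genes, nlp genes and 20 neuron markers in each library, and the ratio of the summed flp and nlp level to that of the neuron markers. Red bars are ilimaquinone libraries (IQ) and grey bars vehicle libraries. Vehicle replicate 1 is lowest in all panels, and the ratio lies between 5.23 and 5.83 in all libraries. The neuron markers include the neuropeptide processing genes egl-3 and egl-21.

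Vehicle replicate 1 had the lowest TPM of the 6 libraries for 73 of the 95 tested members, 76.8%, against 19.2% of all tested genes. The median member there stood at 0.686 times the mean of vehicle replicates 2 and 3, the median neuron marker at 0.822 times and the median tested gene at 1.16 times. The ilimaquinone libraries were close to each other: the median coefficient of variation of a member was 9.57% over the ilimaquinone libraries and 24.1% over the vehicle libraries, and it was larger over the vehicle libraries for 92 of 95 members. Over all tested genes these median coefficients of variation were 10.2% and 23.3%.

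The direction of the family's median rested on that library. The median log2 fold change of the 95 members was 0.14, against -0.02 for all tested genes, and 68 members were positive and 27 negative. It was 0.20 for the 30 flp genes and 0.10 for the 65 nlp genes. Without vehicle replicate 1 the median of the members was -0.07, with 38 positive and 57 negative, and those of flp and nlp genes were 0.03 and -0.12. Of the 95 members 34 changed sign, 32 of them to negative. In that fit 1 member was called higher and 3 lower, against 2.68% and 1.63% of all tested genes (4.31% together), and at an unadjusted p under 0.05 there were 5 higher and 15 lower members, against 11.4% and 11.3%. Without vehicle replicate 2, the library highest in 40 of the 95 members, the median moved the other way, to 0.29, with 80 positive and 15 negative. That fit called 0 members in edgeR, against 0.687% higher and 0.148% lower of all tested genes, and 14 were higher and 2 lower at an unadjusted p under 0.05, against 12.5% and 16.5%. The flp median was then 0.36 and the nlp median 0.26. The part that the germline and neuron markers of vehicle replicate 1 play in these values was not tested.

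**Figure D2:**
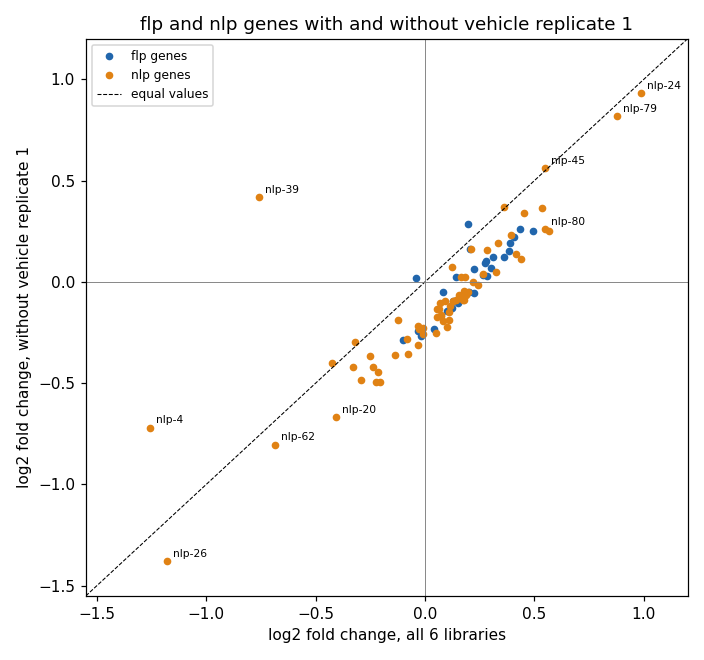
Log2 fold change (ilimaquinone over vehicle, edgeR) of the 95 tested flp and nlp genes with all 6 libraries on the horizontal axis and without vehicle replicate 1 on the vertical axis. Most points lie below the dashed line of equal values, and nlp-39 and nlp-4 lie far above it.

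Fold changes were small for most members. Of the 95, 85 had an absolute log2 fold change under 0.5 and 2 had at least 1, nlp-4 and nlp-26. The flp genes ranged from -0.10 for flp-5 to 0.49 for flp-17, and their member with the smallest p was flp-28.

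**Figure D3:**
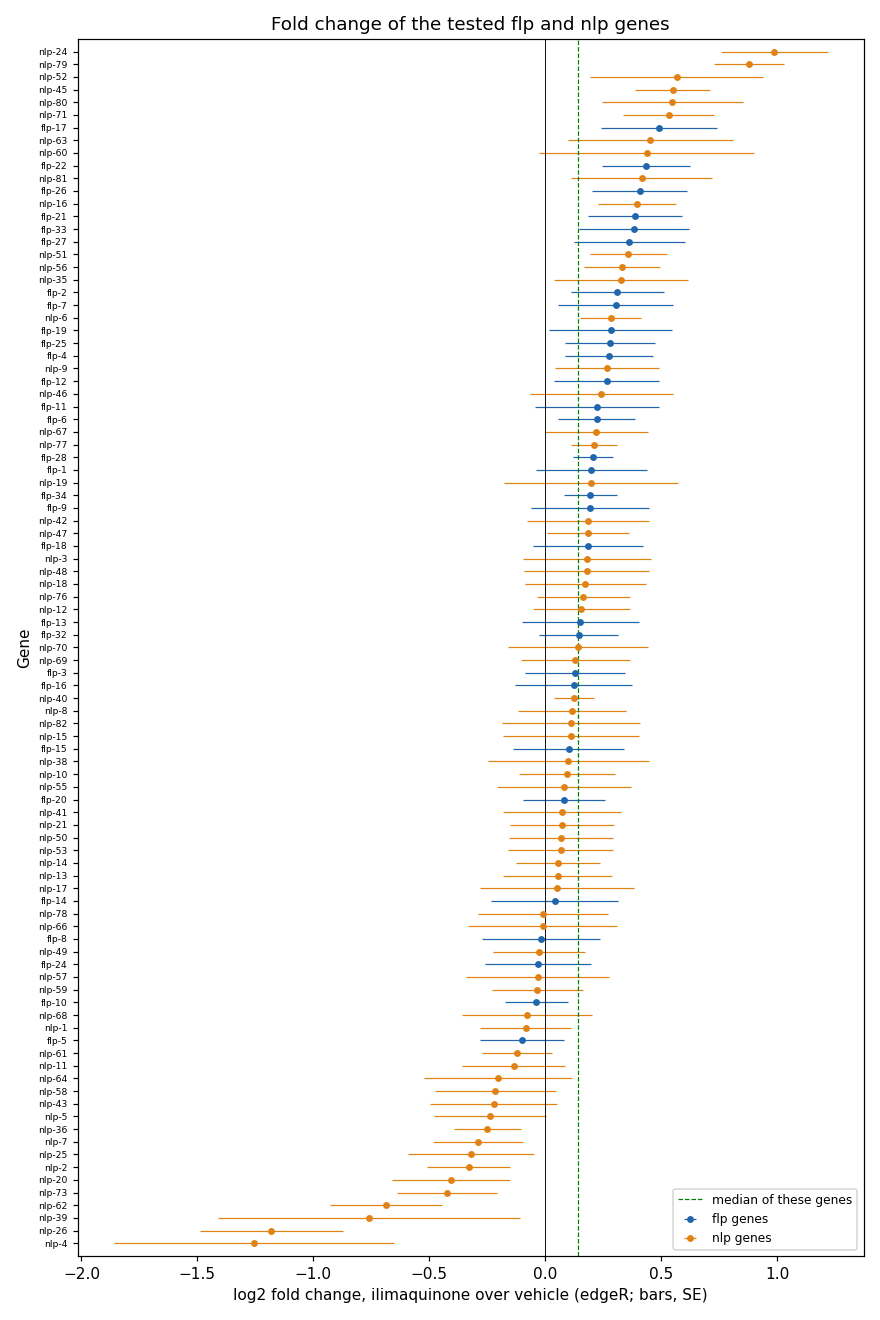
Log2 fold change of each tested member, ilimaquinone over vehicle, with its standard error from the edgeR fit; blue points are flp genes and orange points nlp genes, and the dashed line marks their median of 0.14. The extremes in both directions are nlp genes, and the flp genes lie between -0.10 and 0.49.

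The gene nlp-79 (gene 3565694, chromosome IV, 13149576 to 13150571, build WBcel235, plus strand) was at 33.4, 32.1 and 31.6 TPM in the ilimaquinone libraries, against 17.9, 18.4 and 15.9 TPM in the vehicle libraries. All ilimaquinone libraries were above all vehicle libraries, and vehicle replicate 1 lay between the other vehicle libraries. The log2 fold change was 0.88 ± 0.15 (SE, adjusted p = 0.0499 in edgeR), at the edge of the threshold. The call was lost without any 1 of the other 5 libraries (adjusted p of 0.0671 to 0.264 in edgeR) and kept without vehicle replicate 1 (adjusted p = 0.0221 in edgeR). The nlp-79 locus shares 57 bases with crld-1 on the other strand, which had a log2 fold change of -0.14 ± 0.11.

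Next by p among the higher members stood nlp-24, whose opioid-like peptides act through the receptor NPR-17 in the feeding of starved worms. It was at 114.9, 179 and 151 TPM with ilimaquinone, against 76.4, 92.5 and 53.4 TPM with vehicle, a log2 fold change of 0.99 ± 0.23 that missed the threshold (adjusted p = 0.1 in edgeR and 0.00284 in DESeq2). The groups did not overlap, and vehicle replicate 1 was again the middle vehicle library. The gene nlp-45, which affects exploratory locomotion, was at 11.8, 13.4 and 11.6 TPM with ilimaquinone, against 9.47, 7.88 and 7.62 TPM with vehicle (adjusted p = 0.147 in edgeR and 0.031 in DESeq2). For nlp-71 the values were 68.6, 73.1 and 64.3 TPM with ilimaquinone, against 39.7, 58.1 and 41.8 TPM with vehicle (adjusted p = 0.191 in edgeR). Both genes had separate groups, and their log2 fold changes were 0.55 ± 0.16 for nlp-45 and 0.53 ± 0.20 for nlp-71. Without vehicle replicate 1 these were 0.56 for nlp-45 and 0.37 for nlp-71, and 0.93 for nlp-24. The other higher members with the smallest p were flp-28, nlp-16, flp-22 and nlp-51, with log2 fold changes of 0.21 to 0.43 and adjusted p of 0.23 to 0.257 in edgeR. Those of nlp-16 and flp-22 were 0.23 and 0.26 without vehicle replicate 1, and without vehicle replicate 3 nlp-51 had 0.22. Of these flp-28 was at 217, 212 and 214 TPM with ilimaquinone, against 194, 176 and 182 TPM with vehicle. Fold changes of like size with a wide spread were found for nlp-52 (0.57 ± 0.37) and nlp-80 (0.55 ± 0.30), of which nlp-52 shares 664 bases with the more abundant T17H7.7 on the other strand (0.45 ± 0.25). The abundant nlp-80 was at 236.9, 235.4 and 174 TPM with ilimaquinone, against 91.3, 185.2 and 152 TPM with vehicle, and its groups overlapped. Their log2 fold changes without vehicle replicate 1 were 0.26 for nlp-80 and 0.25 for nlp-52.

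Among lower members nlp-26 had the smallest p. It was at 21.6, 26.1 and 15.7 TPM with ilimaquinone, against 37.4, 65.3 and 38.1 TPM with vehicle, a log2 fold change of -1.18 ± 0.31 (adjusted p = 0.124 in edgeR and 0.00647 in DESeq2). The groups did not overlap, and vehicle replicate 2 was highest. Without vehicle replicate 1 nlp-26 was called lower, at -1.38 ± 0.27 (adjusted p = 0.0451 in edgeR). The locus of nlp-26 (gene 180281, chromosome V, 19613461 to 19614534) lies wholly within that of Y43F8C.3 on the other strand. That gene averaged 3728 counts a library against 369 for nlp-26 and had a log2 fold change of 0.29 ± 0.17. No source used here gives the strand setting of the counting, and it is uncertain to which gene the shared reads were assigned. For nlp-62 the levels were 12.6, 12.3 and 12.5 TPM with ilimaquinone, against 18.4, 25.9 and 15.2 TPM with vehicle, separate groups with a log2 fold change of -0.69 ± 0.24 (adjusted p = 0.182 in edgeR).

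Another pair of genes passed the test once vehicle replicate 1 was left out, a fit with 2 vehicle libraries, but not with all libraries. The gene nlp-20 was at 166, 168 and 185 TPM with ilimaquinone, against 154, 277 and 238 TPM with vehicle, with a log2 fold change of -0.41 ± 0.26 over all libraries (adjusted p = 0.373 in edgeR) and -0.67 ± 0.08 without vehicle replicate 1 (adjusted p = 0.0157 in edgeR). The gene nlp-7, whose peptides inhibit egg laying, was at 40.3, 43.6 and 41.2 TPM with ilimaquinone, against 40.7, 57.7 and 51.1 TPM with vehicle. Its log2 fold change was -0.29 ± 0.19 over all libraries (adjusted p = 0.395 in edgeR) and -0.48 ± 0.09 without vehicle replicate 1 (adjusted p = 0.0401 in edgeR). In both genes vehicle replicates 2 and 3 lay above all ilimaquinone libraries, while vehicle replicate 1 lay below them for nlp-20 and among them for nlp-7. With each library left out in turn, the log2 fold change ranged from -0.67 to -0.22 for nlp-20 and from -0.48 to -0.17 for nlp-7. Omission of vehicle replicate 1 thus gave the largest of these changes in both genes. The remaining lower members with the smallest p were nlp-4, nlp-73, nlp-2 and nlp-36, of which nlp-4 had at most 2.67 TPM in any library. The gene nlp-36 was at 184, 163 and 186 TPM with ilimaquinone, against 197, 198 and 229 TPM with vehicle, separate groups with a log2 fold change of -0.25 ± 0.14 (adjusted p = 0.341 in edgeR).

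**Figure D4:**
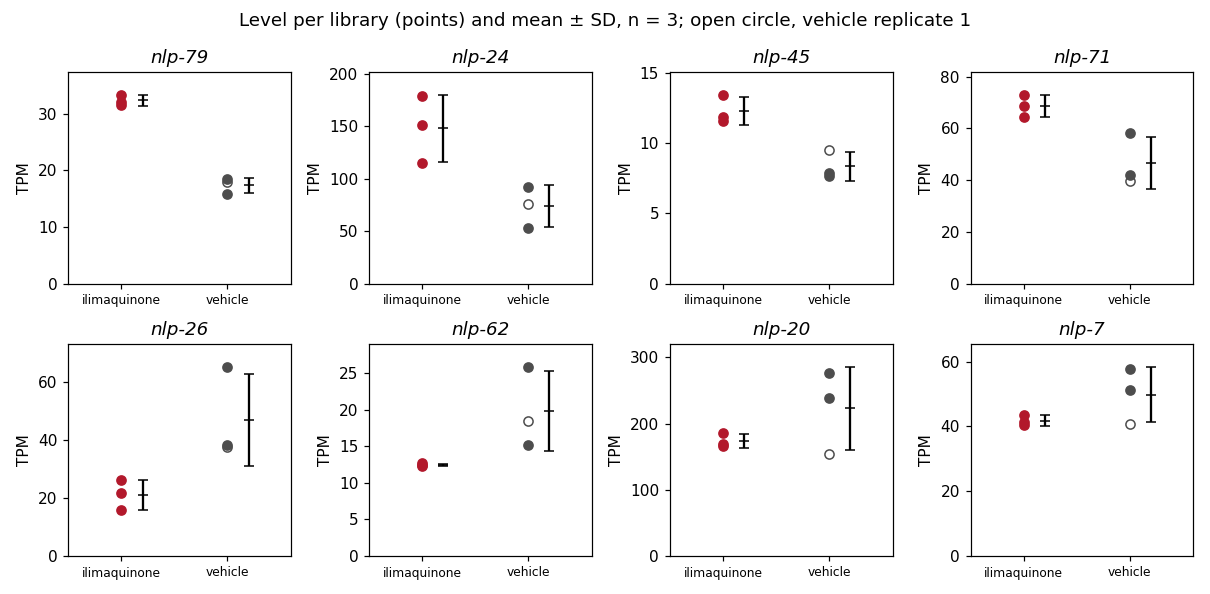
TPM of 8 members in each library, ilimaquinone (red) left of vehicle (grey), with the mean ± SD of 3 libraries beside the points; the open circle is vehicle replicate 1. The groups are separate for nlp-79, nlp-24, nlp-45, nlp-71, nlp-26 and nlp-62 and overlap for nlp-20 and nlp-7, where vehicle replicate 1 lies lowest of the vehicle libraries.

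Levels differed widely among the members. The mean over all libraries was at least 100 TPM for 36 members, 10 to under 100 TPM for 53, 1 to under 10 TPM for 6 and under 1 TPM for 3. The median member was at 61.1 TPM, the median flp gene at 109 TPM and the median nlp gene at 39.5 TPM, against 11.0 TPM for all tested protein-coding genes. The 5 most abundant members made up 26.9% of the summed level. The most abundant, nlp-77, was at 1043, 998 and 1123 TPM with ilimaquinone, against 949, 869 and 892 TPM with vehicle. Its groups did not overlap, and its log2 fold change was 0.21 ± 0.10 (adjusted p = 0.264 in edgeR). The deposited table describes its product as a protein with a DUF148 domain.

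The second most abundant was flp-1, whose peptides control locomotion and, on release from the AIY interneurons, the antioxidant response of the gut. It was at 570, 593 and 512 TPM with ilimaquinone, against 334, 578 and 496 TPM with vehicle, a log2 fold change of 0.20 ± 0.24 (adjusted p = 0.639 in edgeR) that was -0.05 without vehicle replicate 1. Next came nlp-49, which raises arousal through the receptor SEB-3. It was at 513, 519 and 512 TPM with ilimaquinone, against 404, 624 and 509 TPM with vehicle, so that the vehicle libraries lay on both sides of 3 nearly equal ilimaquinone libraries. The gene nlp-18 followed at 403, 391 and 393 TPM with ilimaquinone, against 235.2, 447 and 342 TPM with vehicle. The fifth was nlp-40, whose peptide is released from the gut to time the defecation rhythm. It was at 331, 346 and 355 TPM with ilimaquinone, against 327, 320 and 292 TPM with vehicle, separate groups with a log2 fold change of 0.12 ± 0.09 (adjusted p = 0.416 in edgeR). Places 6 to 12 were held by flp-12, flp-9, nlp-21, flp-11, nlp-15, flp-14 and flp-18, with group means of 210 to 318 TPM with ilimaquinone and 184 to 258 TPM with vehicle and log2 fold changes of 0.04 to 0.27, none past the test. Without vehicle replicate 1 these 7 had log2 fold changes of -0.23 to 0.04.

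Grouped by function, no group held a member that passed the edgeR test with all libraries. Among genes tied to fat use and the antioxidant response, flp-2 had separate groups, at 67.8, 73.6 and 68.8 TPM with ilimaquinone, against 45.02, 66.6 and 52.0 TPM with vehicle. Release of FLP-2 from the gut is known to raise antioxidant gene expression. The log2 fold change of flp-2 was 0.31 ± 0.20 (adjusted p = 0.379 in edgeR), and 0.12 without vehicle replicate 1. Its locus lies wholly within W07E11.1 on the other strand, a more abundant gene with a log2 fold change of 0.39 ± 0.13. The assignment of the shared reads is uncertain. The gene flp-7, which acts from sensory neurons on fat loss in the gut, was at 75.1, 81.9 and 60.8 TPM with ilimaquinone, against 42.2, 70.7 and 59.0 TPM with vehicle, and its groups overlapped. The gene flp-18, which acts on fat stores and locomotion, had a log2 fold change of 0.18 ± 0.24, and flp-7 one of 0.30 ± 0.25. Both lay close to 0 without vehicle replicate 1, at -0.055 for flp-18 and 0.067 for flp-7.

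Sleep genes gave no call either. FLP-11 is the sleep-inducing peptide of the RIS neuron, and FLP-13, FLP-24 and NLP-8 are released by the ALA neuron after stress. The gene flp-11 was at 256, 274 and 236 TPM with ilimaquinone, against 141, 257 and 238 TPM with vehicle. The gene flp-13 was at 83.6, 90.9 and 82.4 TPM with ilimaquinone, against 52.6, 94.7 and 77.6 TPM with vehicle. In both, the ilimaquinone libraries and vehicle replicates 2 and 3 overlapped, and vehicle replicate 1 lay below them all. The 5 tested sleep genes, flp-11, flp-13, flp-24, nlp-8 and nlp-14, had log2 fold changes of -0.03 to 0.22 with all libraries and -0.24 to -0.05 without vehicle replicate 1. Of these, nlp-8 lies wholly within pck-2 on the other strand. That gene averaged 104539.5 counts a library against 3345 for nlp-8, with a log2 fold change of 0.52 ± 0.16. For nlp-8, too, the assignment of the shared reads is uncertain.

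Of the egg-laying genes, flp-17 and flp-10, whose peptides inhibit egg laying through the receptor EGL-6, had log2 fold changes of 0.49 ± 0.25 and -0.04 ± 0.14, and without vehicle replicate 1 that of flp-17 was 0.25. The gene nlp-3, which promotes egg laying, had 0.18 ± 0.28. The locomotion gene nlp-12, a cholecystokinin-like peptide gene of the DVA neuron, was at 115.2, 118 and 114 TPM with ilimaquinone, against 77.7, 114.95 and 112 TPM with vehicle. Of genes of sensory neurons, flp-21, a ligand gene of the receptor NPR-1, was at 135, 133 and 109 TPM with ilimaquinone, against 75.7, 109 and 96.6 TPM with vehicle, a log2 fold change of 0.39 ± 0.20 (adjusted p = 0.299 in edgeR) that was 0.19 without vehicle replicate 1. The genes flp-6 and nlp-1 had 0.22 ± 0.17 and -0.08 ± 0.20 on the same scale, and 0.062 and -0.28 without vehicle replicate 1.

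A few members went against the pattern of vehicle replicate 1. It held the highest TPM of all libraries for 6 of the 95 tested members. The largest gap was that of nlp-39 (chromosome I, 12461656 to 12461895), at 9.18, 7.17 and 10.04 TPM with ilimaquinone, against 35.1, 5.66 and 6.57 TPM with vehicle. Its log2 fold change was -0.76 ± 0.65 with all libraries and 0.42 ± 0.29 without vehicle replicate 1, so 1 library set its direction. The low gene nlp-4 was at 0.315, 0.917 and 0.591 TPM with ilimaquinone, against 2.67, 0.574 and 1.29 TPM with vehicle. The gene flp-34, an NPY-related peptide gene with a role in aversive odour learning, was at 72.8, 74.8 and 71.2 TPM with ilimaquinone, against 120, 60.6 and 56.1 TPM with vehicle. Levels of nlp-79, nlp-24, nlp-40, nlp-77 and flp-28 in vehicle replicate 1 were within 0.12 on the log2 scale of the mean of the other vehicle libraries.

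The 3 members below the filter were close to the limit of detection. The gene nlp-22, of a peptide of the RIA neuron that promotes larval sleep, had 4, 2 and 3 counts with ilimaquinone, against 0, 0 and 0 with vehicle. Its neighbour nlp-23 had 0, 0 and 0 counts with ilimaquinone, against 4, 8 and 9 with vehicle. The gene flp-23 had 0, 0 and 3 counts with ilimaquinone, against 4, 3 and 3 with vehicle. These genes were not tested, and no fold change is given.

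By position, 31 of the 98 members lay on chromosome X, 31.6%, against 14.5% of tested protein-coding genes. On X lay 13 of 31 flp genes and 18 of 67 nlp genes. Members lie close together at a few places. On X between 2337600 and 2344766 lie nlp-45, nlp-22, nlp-23 and nlp-2, all on the minus strand. Of these nlp-45 had a log2 fold change of 0.55 ± 0.16 and nlp-2 one of -0.33 ± 0.18, and all 4 lie within the locus of T01B6.1 on the other strand, which had 0.44 ± 0.23. The trio flp-28, flp-3 and flp-2, at 10087314 to 10095245 on X, lies within W07E11.1 on the other strand. Their log2 fold changes were 0.21 ± 0.09 for flp-28, 0.13 ± 0.21 for flp-3 and 0.31 ± 0.20 for flp-2, and that of W07E11.1 was 0.39 ± 0.13 (adjusted p = 0.178 in edgeR). W07E11.1 averaged 9105 counts a library, against 3057 for flp-28, 2260 for flp-3 and 953 for flp-2. T01B6.1 averaged 172.5, against 190.5 for nlp-45 and 348 for nlp-2. At both places it is uncertain to which gene the shared reads were assigned. In all, 35 members overlap another tested gene, in 31 of 36 overlapping pairs on the opposite strand.

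For 19 members the transcript table lists more than 1 transcript. Of 121 transcripts of the members 112 were tested among 22238. Of these edgeR called 0, against 0.234% higher and 0.0585% lower of all tested transcripts (0.292% together). An unadjusted p under 0.05 was found for 11, against 15.6% of all (7.51% higher and 8.14% lower). The Wald test of DESeq2 called 4 higher and 1 lower, against 3.69% and 2.99% (6.68% together). Without vehicle replicate 1 edgeR again called 0, against 0.14% higher and 0.0568% lower. No source used here says how estimated counts were shared between overlapping transcripts of a gene, so transcript levels are less certain than gene levels. A difference in fold change between transcripts of 1 gene was not tested.

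In some genes the transcripts differed in their values. The 517-base transcript of flp-2 was at 45.5, 52.9 and 45.4 TPM with ilimaquinone, against 29.7, 35.7 and 29.8 TPM with vehicle, separate groups with a log2 fold change of 0.57 ± 0.17 (adjusted p = 0.241 in edgeR). The 589-base transcript had -0.08 ± 0.31. The shorter transcript made up 66.0% to 71.8% of flp-2 with ilimaquinone and 53.6% to 65.9% with vehicle. For nlp-6 the 548-base transcript was at 68.2, 64.6 and 73.0 TPM with ilimaquinone, against 41.5, 50.7 and 50.3 TPM with vehicle, with a log2 fold change of 0.50 ± 0.18 (adjusted p = 0.289 in edgeR) beside -0.06 ± 0.13 for the 780-base transcript. Of flp-34, the 641-base transcript was at 51.9, 54.8 and 50.6 TPM with ilimaquinone, against 103.9, 49.1 and 41.0 TPM with vehicle. The 3953-base transcript of flp-34 was at 17.4, 18.3 and 19.1 TPM with ilimaquinone, against 12.3, 11.4 and 15.1 TPM with vehicle (adjusted p = 0.29 in edgeR). The high gene level of flp-34 in vehicle replicate 1 thus lay in the short transcript. The deposited flp-34 locus shares 5889 bases with nra-4 on the same strand, and its end lies 15175 bases from that of Ensembl. The gene nra-4 averaged 8760.5 counts a library against 2778 for flp-34, with a log2 fold change of 0.20 ± 0.12. To which gene the shared reads were assigned is uncertain. For flp-1, the 577-base transcript stood at 73.0, 15.7 and 12.9 TPM with ilimaquinone, against 6.66, 12.5 and 12.4 TPM with vehicle, and ilimaquinone replicate 1 alone was far above the others.

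**Figure D5:**
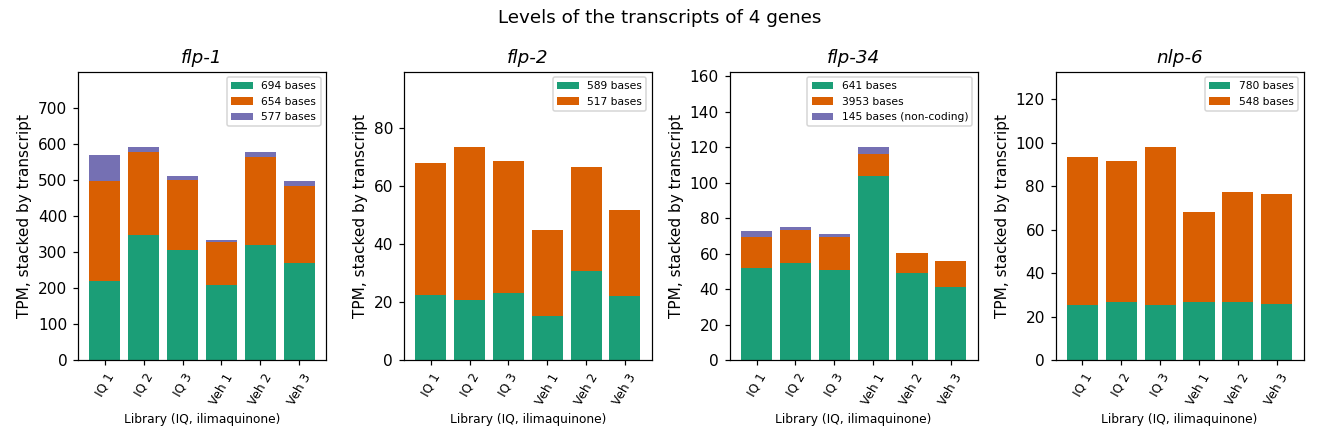
TPM of the transcripts of flp-1, flp-2, flp-34 and nlp-6, stacked per library and coloured by transcript length, with ilimaquinone libraries (IQ) left of vehicle libraries. The 517-base flp-2 and 548-base nlp-6 transcripts are higher in all ilimaquinone libraries than in all vehicle libraries, while the tall bar of flp-34 in vehicle replicate 1 is its 641-base transcript.

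Genes that process, store, sense and remove neuropeptides were compared as lists, of which the processing and vesicle lists hold 5 of the 20 neuron markers. Of 11 processing enzyme genes, 0 passed the edgeR test (0 at an unadjusted p under 0.05, 0 in DESeq2), and their median log2 fold change was 0.23, or 0.04 without vehicle replicate 1. The proprotein convertase gene egl-3 was at 515, 513 and 457 TPM with ilimaquinone, against 308, 492 and 459 TPM with vehicle, and the carboxypeptidase gene egl-21 was at 570, 576 and 493 TPM with ilimaquinone, against 327, 506 and 482 TPM with vehicle. In both, vehicle replicate 1 was lowest, as in most of the peptide genes. The convertase chaperone gene sbt-1 had a log2 fold change of 0.23 ± 0.19, and cpd-1, which had the smallest p of the list, 0.28 ± 0.13. The log2 fold changes without vehicle replicate 1 were -0.052 for egl-3, 0.049 for egl-21, 0.033 for sbt-1 and 0.15 for cpd-1. Of 18 dense-core vesicle genes, 0 passed the edgeR test (2 higher and 1 lower at an unadjusted p under 0.05, against 10.1% and 11.8% of all tested genes, and 0 in DESeq2), with a median of 0.07, or -0.01 without vehicle replicate 1. Among them unc-31, the CAPS protein gene needed for vesicle release, had 0.35 ± 0.18, the vesicle marker gene ida-1 0.27 ± 0.27 and eipr-1 -0.48 ± 0.16. Leaving out vehicle replicate 1 gave 0.17 for unc-31, 0.0050 for ida-1 and -0.37 for eipr-1.

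Of 92 tested neuropeptide receptor genes 1 rose in the edgeR test and 0 fell, against 1.14% and 0.327% of all tested genes, with a list median of 0.22, or 0.10 without vehicle replicate 1 and 0.33 without vehicle replicate 2. At an unadjusted p under 0.05 in edgeR 7 were higher and 0 lower, against 10.1% and 11.8% of all tested genes. DESeq2 called 2 higher and 0 lower, against 5.33% and 5.71%. TPM values of the groups did not overlap for 27 higher and 3 lower receptor genes, against 17.3% and 12.4%. The gene that rose in edgeR was trhr-1, the receptor gene for thyrotropin-releasing hormone-like peptides, which worms need for normal growth. It was at 26.9, 25.7 and 25.8 TPM with ilimaquinone, against 15.5, 15.1 and 15.5 TPM with vehicle, a log2 fold change of 0.75 ± 0.12 (adjusted p = 0.0398 in edgeR). Vehicle replicate 1 lay between the other vehicle libraries. The call was lost without any 1 of the other 5 libraries (adjusted p of 0.0663 to 0.229 in edgeR).

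Other peptide genes, pdf-1, pdf-2, ntc-1, snet-1, lury-1 and capa-1, had 0 calls in edgeR (0 at an unadjusted p under 0.05, 0 in DESeq2). Over all tested genes these shares were 1.47%, 21.9% and 11.0% in either direction. Of the other peptide genes ntc-1, the gene of the oxytocin- and vasopressin-like nematocin, was at 25.1, 29.04 and 29.7 TPM with ilimaquinone, against 16.8, 24.6 and 18.1 TPM with vehicle, a log2 fold change of 0.47 ± 0.22 (adjusted p = 0.262 in edgeR) that was 0.29 without vehicle replicate 1. The median of these 6 genes was 0.13, or -0.093 without vehicle replicate 1. Neprilysins are peptidases that break down extracellular peptides. Of 19 tested, 0 passed the edgeR test (2 higher and 3 lower at an unadjusted p under 0.05, against 10.1% and 11.8% of all tested genes, and DESeq2 called 1 higher and 1 lower, against 5.33% and 5.71%). Of these 7 were positive and 12 negative, and their median log2 fold change was -0.29, or -0.26 without vehicle replicate 1 and -0.77 without vehicle replicate 2. The smallest p belonged to nep-1, at 0.42 ± 0.11 (adjusted p = 0.123 in edgeR), and the smallest among the lower ones to nep-23, at -2.28 ± 0.69 (adjusted p = 0.153 in edgeR). The level of nep-23 was 0.131, 0.159 and 0.303 TPM with ilimaquinone, against 2.25, 0.444 and 0.511 TPM with vehicle, highest in vehicle replicate 1. Of the 8 epidermal genes nlp-27 to nlp-34, 0 passed the edgeR test (2 higher and 2 lower at an unadjusted p under 0.05, against 10.1% and 11.8% of all tested genes, and DESeq2 called 0 higher and 2 lower, against 5.33% and 5.71%). Their median was 0.02, with 4 positive and 4 negative. The lower pair at an unadjusted p under 0.05 was nlp-30, at -0.68 ± 0.13 (adjusted p = 0.0649 in edgeR), and nlp-29, at -0.43 ± 0.09, and the higher pair nlp-32, at 1.48 ± 0.43, and nlp-33, at 0.50 ± 0.19.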

How the data were processed

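The submitters' processing notes name bcl2fastq 2.20.0, HISAT2 2.1.0, SAMtools 1.9 and build WBcel235, and the labels' protocols describe stranded poly(A) libraries. The program that counted reads is not stated. Per the file headers, the authors deposited TPM and FPKM values and read counts of genes and of transcripts, 1 column a library. The deposited counts are whole numbers and are called estimated counts, since how they were made is unknown. The deposited FPKM values were not used. Groups and replicate numbers came from the sample titles. Levels are the authors' TPM values and fold changes come from counts, so these scales can differ where transcripts of unequal length shift.

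Counts were tested in R 4.3.3 with edgeR 4.0.16 (filterByExpr, TMM, glmQLFit and glmQLFTest, all 6 libraries, no covariate). P-values were adjusted by Benjamini-Hochberg over all tested genes, or all tested transcripts, at 0.05. A standard error is the fold change over the square root of F, and the procedure was tested on simulated data. The biological coefficient of variation was 28.4%. The most alike pair of libraries in a group had a chi-square of 29.7 per gene, more than counting noise alone would give. This cannot show that libraries came from separate cultures, and each library was treated as a replicate. Rows with no symbol (24) held 0.0161% of counts. Positions are the deposited loci, of which 87 of 98 lay within 1000 bases of Ensembl release 115 at both ends.

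Members and lists were chosen with earlier results of these data known. Named members are those called, the 8 with the smallest p in each direction, the 10 with the largest fold change at 1 CPM or more, the 12 most abundant and groups by known function. Each pathway list gives its called gene or that with the smallest p, and egl-3, egl-21, unc-31, ida-1 and sbt-1. The genes nlp-6, flp-3, flp-5, nlp-22, nlp-23, flp-23, gnrr-1, nep-23, nlp-29, nlp-32 and nlp-33, overlapping genes and transcripts were chosen after their values were seen. Alternative settings were DESeq2 1.42.0, scaling by its size factors, by upper quartiles or by library size, no or a stricter filter on low counts (1 CPM in 3 libraries and 50 counts in total), replicate number as block, limma-trend (limma 3.58.1, log2 of TPM + 1) and omission of each library.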

Additional observations from a re-analysis of the deposited data

How the results depend on the processing

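Replicate numbers did not pair the libraries (correlations of same-numbered deviations of -0.15, 0.39 and -0.22), and the replicate block left 21 higher and 1 lower call over all genes, against 188 and 54. DESeq2 gave 879 and 943, no filter on low counts 60 and 9, and the stricter filter 94 lower. Leaving out 1 library gave 11 to 451 higher and 0 to 274 lower. Among flp and nlp genes, all of them nlp genes, DESeq2 called 3 higher and 1 lower, while 0 were higher with upper-quartile factors, library size alone, no filter or the replicate block. Leaving out 1 library gave 0 to 1 higher and 0 to 3 lower. The adjusted p of nlp-79 in edgeR was 0.0729 with upper-quartile factors, 0.0518 with library size alone, 0.0759 without a filter and 0.17 with the block. DESeq2 called 4 transcripts higher and 1 lower, and limma-trend 1 higher. Receptor genes had 2 higher in DESeq2, 0 with upper-quartile factors, no filter or the block, and 0 to 1 when 1 library was left out. For trhr-1 the adjusted p in edgeR was 0.0682 with upper-quartile factors, 0.0739 without a filter and 0.143 with the block. Neprilysins had 1 higher and 1 lower in DESeq2 and 0 to 2 higher when 1 library was left out. The epidermal group had 2 lower in DESeq2, 1 with the stricter filter and 0 to 2 when 1 library was left out, and neuron markers 1 higher in DESeq2. The log2 fold change turned to 0.014 for nlp-49 and 0.016 for flp-24 with the block, and to 0.029 for nlp-49, 0.031 for flp-24 and -0.026 for flp-34 in limma-trend. Leaving out 1 library turned the direction of 19 named genes, with values from -1.16 to 0.42 for nlp-39, -0.049 to 0.37 for flp-1, -0.23 to 0.14 for nlp-49, -0.089 to 0.42 for nlp-18, -0.056 to 0.43 for flp-9, -0.16 to 0.22 for nlp-21, -0.054 to 0.38 for flp-11, -0.19 to 0.30 for nlp-15, -0.23 to 0.27 for flp-14, -0.055 to 0.31 for flp-18, -0.12 to 0.28 for nlp-8, -0.10 to 0.35 for flp-13, -0.13 to 0.16 for nlp-14, -0.24 to 0.21 for flp-24, -0.14 to 0.021 for flp-10, -0.090 to 0.39 for nlp-3, -0.066 to 0.28 for nlp-12, -0.28 to 0.031 for nlp-1 and -0.052 to 0.31 for egl-3. None of these 19 passed the test in any of these fits. Over all results and alternatives, 372 counts, medians and sums stayed within the spread or 1.5 times and 62 did not, and 860 values of single genes and transcripts kept their direction and side of the threshold, 17 gained the call, 17 lost it and 28 turned. The cause of these changes was not tested. With 3 libraries a group, members under 1 TPM rest on few counts.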

Other observations

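The 842-base non-coding transcript listed for flp-12, at X 4591429 to 4592327, had 17, 22 and 22 counts with ilimaquinone, against 2, 2 and 2 with vehicle (adjusted p = 0.0703 in edgeR over all transcripts), while the 483-base coding transcript was at 304 to 334 TPM with ilimaquinone and 193 to 327 TPM with vehicle. The receptor gene gnrr-1 was at 833, 23.8 and 807 TPM with ilimaquinone, against 649, 723 and 634 TPM with vehicle, so that ilimaquinone replicate 2 stood far below the others.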
